A study of Mus musculus with 24 samples.

Results

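The breakdown of amino acids other than the branched-chain ones was followed through 33 genes, picked by gene symbol from textbook pathways: 6 of phenylalanine and tyrosine, 5 of tryptophan, 7 of serine, glycine and threonine, 4 of histidine, 3 of lysine, 1 of proline, 5 transaminases and 2 of cysteine and taurine. They were chosen with earlier results of these data known, so the list is not a blind sample of these pathways. These symbols matched 34 of 55421 rows, since Gcat was listed under 2 identifiers, and 32 of the 33 genes were among the 13847 that passed the expression filter. The exception was Tdh, a mitochondrial enzyme of threonine breakdown, which had at most 1 read in any library and was not tested. Polyadenylated RNA was sequenced from hepatocytes isolated by 2-step perfusion from 24 aged male C57BL/6J mice, all carrying the same batch label. ND+veh mice (n = 8) received a normal diet with the vehicle throughout, starting at 4 months of age. HFD+veh mice (n = 7) had the same history until they were 18 months old and then received a high-fat diet, with 60% of calories from fat, plus vehicle for 9 weeks. HFD+eRapa mice (n = 9) received encapsulated rapamycin at 42 ppm, first in the normal diet from 4 months and then in the high-fat diet for the same 9 weeks, so they differed from HFD+veh mice in their exposure both before and during that diet. No group on the normal diet at the end received rapamycin, so its effect without the high-fat diet was not analysed here. Each library is labelled as a separate replicate, and the p-values measure the spread between these libraries.

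Hepatocytes carry out most amino acid catabolism in the body. A transaminase or a dehydratase removes the amino group, the nitrogen is passed to glutamate or released as ammonia for the urea cycle, and the carbon skeleton enters gluconeogenesis or oxidation. Several of these enzymes are induced by glucagon, glucocorticoids or a high protein supply, and some are zonal: serine dehydratase and histidase are found mainly near the portal vein, while ornithine aminotransferase and glutamine synthetase lie near the central vein. Rapamycin inhibits mTORC1, a kinase complex that senses amino acids and insulin signalling.

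Library totals ran from 17.7 to 25.9 M counts. Hepatocyte markers were abundant in every library, with a summed level of 9 such genes of 63424 to 171807 CPM (counts per 1000000 reads) in ND+veh, 105019 to 177707 CPM in HFD+veh and 62581 to 163601 CPM in HFD+eRapa. Other cell types were also present in the libraries. The summed level of 10 macrophage markers had a median of 258 CPM in ND+veh, 2496 CPM in HFD+veh and 206 CPM in HFD+eRapa, and within HFD+veh it went from 171 CPM in replicate 1 to 5434 CPM in replicate 6. Of these 10 markers, 3 rose with the high-fat diet and 8 fell with eRapa (HFD+eRapa against HFD+veh), while of the 10 stellate cell markers 3 rose and 10 fell. In the same order, 1 and 10 of 10 endothelial, 4 and 2 of 4 tested cholangiocyte and 2 and 2 of 4 tested neutrophil markers rose and fell, the single tested lymphocyte marker did neither, and 4 of 5 erythroid markers rose with the diet and 1 rose with eRapa. Of all genes tested, 16.0% rose with the diet, 10.9% rose with eRapa and 21.1% fell with eRapa. In bulk RNA of this kind, fewer cells of a type and less RNA per cell cannot be told apart. ND+veh replicate 4 had the lowest hepatocyte sum of its group and HFD+veh replicate 6 the highest macrophage sum, and results are given with and without them. Other libraries were also extreme. HFD+eRapa replicate 7 had a lower hepatocyte sum, 62581 CPM. HFD+veh replicate 4 had the lowest hepatocyte sum of its group and the highest stellate and cholangiocyte sums (558 and 372 CPM). These libraries were left out only 1 at a time.

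On a scale corrected for transcript length, FPKM, the members spanned a wide range. Hpd, the dioxygenase that acts on the tyrosine product 4-hydroxyphenylpyruvate, was the most abundant, with a median over the 24 animals of 963 FPKM, followed by Cdo1 at 794 FPKM, Tdo2 at 569 FPKM and Tat at 419 FPKM. The lowest of the tested members were Afmid at 28.0 FPKM, Amt at 26.01 FPKM and Sdsl at 5.90 FPKM. Neighbours in this order mostly had overlapping ranges. Sds went from a median of 58.1 FPKM in ND+veh to 392 FPKM in HFD+veh and 109 FPKM in HFD+eRapa, and Csad from 181 to 40.0 and 88.0 FPKM.

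**Figure D1:**
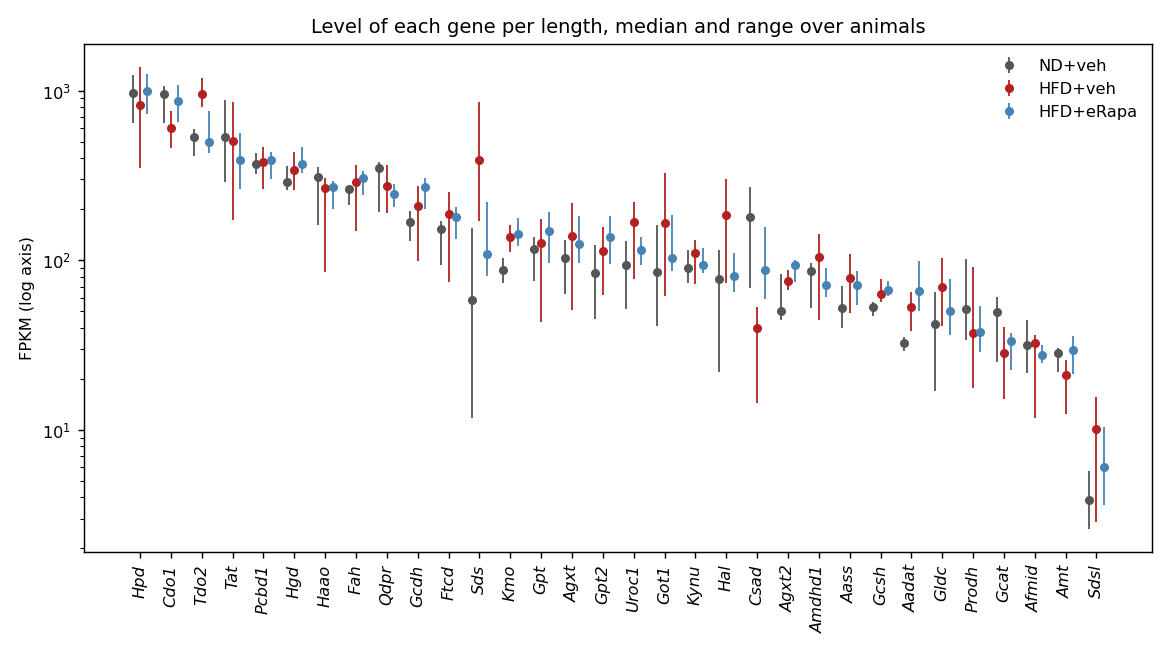
Level per transcript length (FPKM, log axis) of 32 genes, in order of their median over all 24 animals. Points are group medians and bars run from the lowest to the highest animal of ND+veh (n = 8), HFD+veh (n = 7) and HFD+eRapa (n = 9). Hpd lies highest with an overall median of 963 FPKM and Sdsl lowest with 5.90 FPKM. Sds and Csad show the widest separation of the HFD+veh points from those of ND+veh.

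Counts were compared between groups with edgeR's quasi-likelihood test, and a gene was called higher or lower when its Benjamini-Hochberg adjusted p over all 13847 genes was under 0.05. Differences are log2 fold changes with their SE. With the high-fat diet (HFD+veh against ND+veh) 13 of 32 members rose, or 40.6%, against 16.0% of all genes tested, and 3 fell, or 9.38%, against 9.86% of all genes. With eRapa (HFD+eRapa against HFD+veh) 5 members rose, or 15.6%, against 10.9% of all genes, and 3 fell, or 9.38%, against 21.1%. Between HFD+eRapa and ND+veh 7 members were higher, or 21.9%, against 6.93% of all genes, and 2 were lower, or 6.25%, against 6.54%. The median difference over the members was 0.25, 0.08 and 0.33 log2 units in these comparisons, and over all genes it was 0.05, -0.04 and -0.03. The levels of the animals did not overlap between groups for 4 members with the high-fat diet (2.44% of all genes), 1 with eRapa (2.59%) and 4 between HFD+eRapa and ND+veh (3.37%). The comparisons share groups, so they are not independent of each other.

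Members are grouped here by the comparisons in which they passed, and differences between these groupings were not tested. Tdo2, Sds and Hal rose with the high-fat diet and fell with eRapa, and did not pass the test between HFD+eRapa and ND+veh. Csad and Cdo1 fell with the diet and rose with eRapa. Csad was still lower in HFD+eRapa than in ND+veh, while Cdo1 did not pass there. Agxt2 rose in all 3 comparisons, so that its level was highest in HFD+eRapa. Kmo, Gcsh, Aadat and Gpt2 rose with the diet, did not pass the test for eRapa and also exceeded ND+veh in the HFD+eRapa group. Another 5 members, Sdsl, Gldc, Uroc1, Aass and Got1, were called higher only for the diet. Their values with eRapa ran from -0.51 to -0.05 and did not pass. Gcat fell with the diet and was also lower in HFD+eRapa than ND+veh. Gcdh and Amt rose with eRapa without passing for the diet, and Gcdh also exceeded ND+veh in HFD+eRapa. Hgd was called only between HFD+eRapa and ND+veh. Of the 32 members, 13 passed the test in none of the comparisons.

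**Figure D2:**
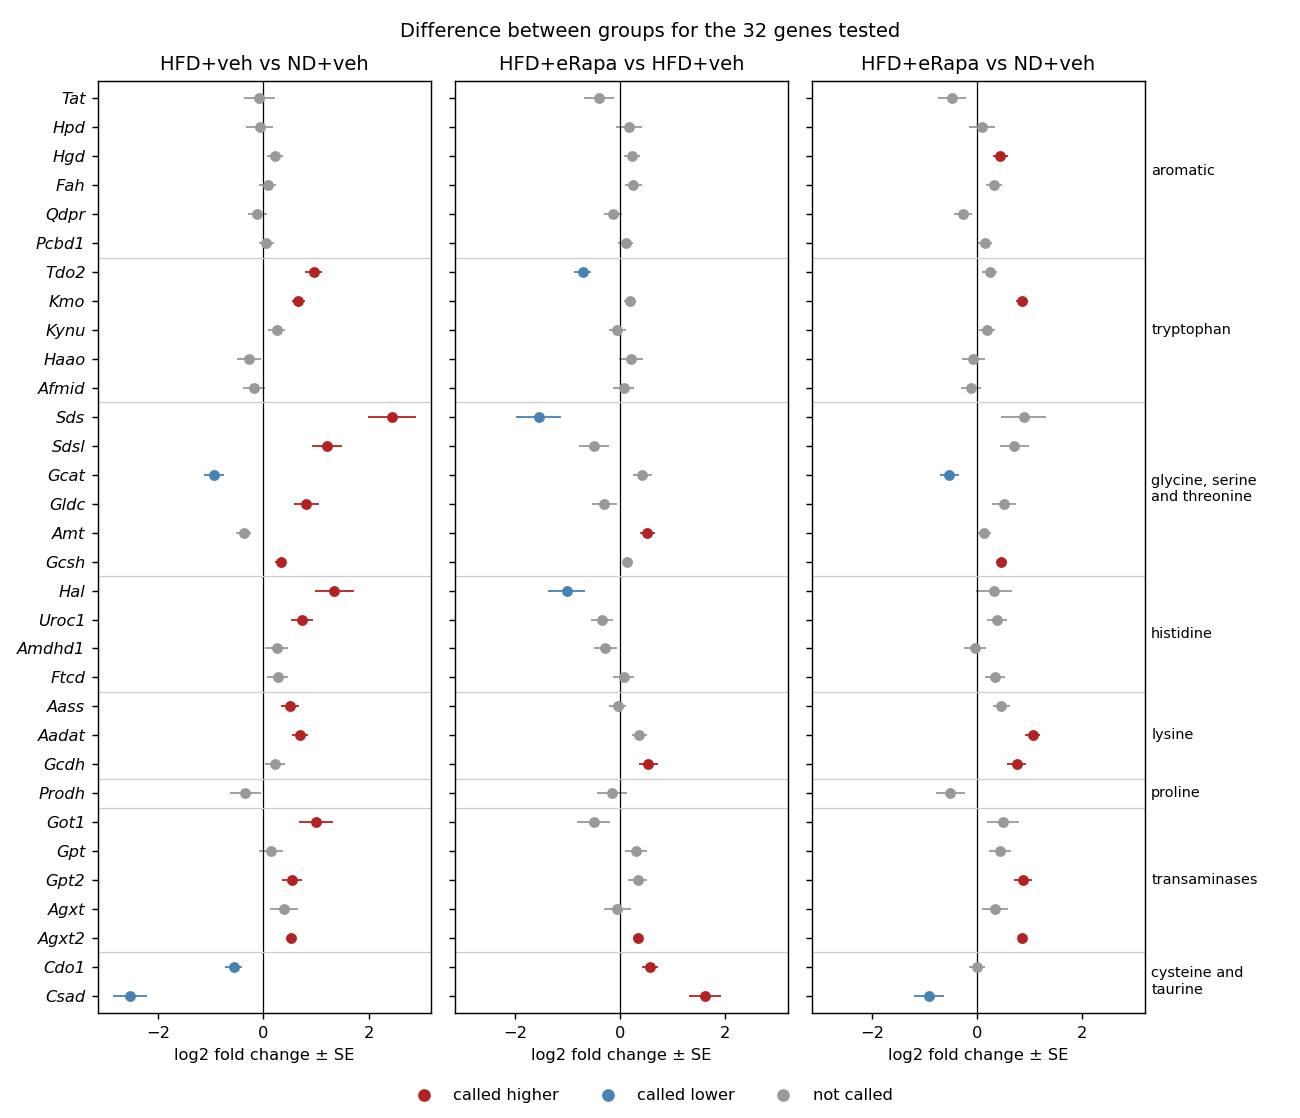
Log2 fold change with its SE (horizontal axis) of the 32 tested genes, grouped by pathway, for the high-fat diet (left), eRapa on the high-fat diet (middle) and HFD+eRapa against ND+veh (right). Red points passed the test as higher, blue points as lower, and grey points did not pass. Sds at 2.44 and Csad at -2.54 mark the ends of the left panel, and both lie on the other side of 0 in the middle panel, at -1.55 and 1.62.

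Promoter sequence is shown for 3 members called with both the diet and eRapa, in opposite directions, and for Kmo, which rose with the diet and was not called with eRapa. Each line gives 300 bases of the RefSeq table for GRCm38.p6, 250 before the annotated start site and 50 from it on, on the strand of the gene. The positions are chr15:102205003-102205302 (minus strand) for Csad, the outer of 2 start sites listed for it, chr10:93488518-93488817 (plus strand) for Hal, chr3:81975679-81975978 (minus strand) for Tdo2 and chr1:175631943-175632242 (plus strand) for Kmo. Capitals mark every match, on either strand, to any of 5 short motifs. The core promoter box of TBP was searched as TATAAA. The box bound by NF-Y was searched as CCAAT. The half-site of the glucocorticoid receptor was taken as TGTTCT. The palindromic cAMP response element was searched as TGACGTCA, and the E-box, whose middle letters it shares, as CACGTG.
Csad: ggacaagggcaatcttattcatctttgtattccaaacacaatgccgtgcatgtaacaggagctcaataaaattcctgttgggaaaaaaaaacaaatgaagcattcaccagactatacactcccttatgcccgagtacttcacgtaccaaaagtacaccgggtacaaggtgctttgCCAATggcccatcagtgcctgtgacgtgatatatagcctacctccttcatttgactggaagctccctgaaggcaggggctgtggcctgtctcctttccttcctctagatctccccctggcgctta
Hal: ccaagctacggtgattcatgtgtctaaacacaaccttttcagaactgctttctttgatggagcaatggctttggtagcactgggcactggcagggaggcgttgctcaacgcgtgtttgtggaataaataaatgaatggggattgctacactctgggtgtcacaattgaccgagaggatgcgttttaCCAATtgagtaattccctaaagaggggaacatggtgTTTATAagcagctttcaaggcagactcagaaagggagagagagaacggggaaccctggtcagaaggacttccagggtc
Tdo2: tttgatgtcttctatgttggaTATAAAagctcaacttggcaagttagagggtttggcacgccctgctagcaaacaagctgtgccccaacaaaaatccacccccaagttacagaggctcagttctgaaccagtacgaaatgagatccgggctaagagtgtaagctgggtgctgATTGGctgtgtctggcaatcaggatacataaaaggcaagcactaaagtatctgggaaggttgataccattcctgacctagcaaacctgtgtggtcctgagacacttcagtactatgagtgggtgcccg
Kmo: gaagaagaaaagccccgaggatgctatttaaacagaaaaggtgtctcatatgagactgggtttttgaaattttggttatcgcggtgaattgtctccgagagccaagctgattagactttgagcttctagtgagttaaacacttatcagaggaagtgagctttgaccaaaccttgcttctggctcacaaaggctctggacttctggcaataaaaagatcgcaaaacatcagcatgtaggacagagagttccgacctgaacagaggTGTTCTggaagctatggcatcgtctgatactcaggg

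The letters CCAAT or their complement began 75 bases before the start site in Csad, 64 before it in Hal and 78 before it in Tdo2. The TATAAA match in Hal lay on the opposite strand, reading TTTATA, and began 28 bases before the start site. In Tdo2 TATAAA began 229 bases before it. Over 29 such windows of 27 members, CCAAT was present in 14 and TATAAA in 7, while 37.4% and 13.6% of all 32851 windows in the table hold them. TGTTCT was in 5 of the 29 windows (19.0% of all windows), CACGTG in 1 (7.15%) and TGACGTCA in 0 (1.79%). These matches describe the letters in a window and do not show that a factor binds there. Kynu, Sdsl, Gpt, Tdh and Sds had no entry, and chromosome 18, where Cdo1 lies, was left out of the member windows.

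Among the enzymes that degrade serine, glycine and threonine, 4 of 6 tested members rose with the high-fat diet and 1 fell. Of all genes, 16.0% rose and 9.86% fell. The largest rise of any member was that of Sds. Sds (serine dehydratase) converts serine to pyruvate and ammonia and threonine to 2-oxobutyrate. Its level was 12.8 CPM in the lowest, 63.7 CPM in the median and 161 CPM in the highest ND+veh animal. In HFD+veh these values were 163, 403 and 992 CPM, and in HFD+eRapa 88.8, 135 and 237 CPM. Every HFD+veh animal therefore lay above every ND+veh animal, though the margin between replicate 6 of HFD+veh and replicate 1 of ND+veh was small, and the HFD+eRapa animals overlapped both groups. Sds was 5.43-fold higher with the diet (log2 fold change 2.44, SE 0.46, adjusted p = 0.00103) and fell by 1.55 with eRapa (SE 0.43, adjusted p = 0.00907). Between HFD+eRapa and ND+veh the difference of 0.89 (SE 0.42) did not pass the test (adjusted p = 0.185). Sds lies at chr5:120476526-120483932, where 29.6% of its exonic length overlaps genes of the opposite strand, and whether counting used the strand is not given in the sources used here.

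Sdsl, a serine dehydratase paralog near it on the same chromosome, was the least abundant tested member. It ran from 3.79 to 8.91 CPM (median 5.71) in ND+veh, from 4.05 to 23.7 CPM (median 11.6) in HFD+veh and from 6.25 to 16.2 CPM (median 8.32) in HFD+eRapa. It was higher with the diet by 1.21 (SE 0.29, adjusted p = 0.00587), with overlapping groups, and its values with eRapa (-0.50, SE 0.28, adjusted p = 0.175) and against ND+veh (0.71, SE 0.28, adjusted p = 0.0950) did not pass. Without HFD+veh replicate 6, in which Sdsl was lowest of its group, the last difference passed at adjusted p = 0.0446.

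The glycine cleavage system splits glycine into carbon dioxide, ammonia and a folate-bound carbon unit, and its subunits did not move alike. Gldc, the decarboxylase that binds glycine, ran from 75.5 to 285 CPM (median 173) in ND+veh, 164 to 438 CPM (median 274) in HFD+veh and 170 to 315 CPM (median 242) in HFD+eRapa. It rose with the diet by 0.82 (SE 0.24, adjusted p = 0.0177) and was not called with eRapa (-0.30, SE 0.23, adjusted p = 0.336). Amt, the aminomethyltransferase, was at 45.6 to 68.6 CPM (median 64.1) in ND+veh, 26.6 to 62.0 CPM (median 51.5) in HFD+veh and 53.1 to 79.1 CPM (median 68.6) in HFD+eRapa, so that its lowest values were in HFD+veh. Its difference with the diet was -0.38 (SE 0.15, adjusted p = 0.0578), which missed the threshold, and it rose with eRapa by 0.52 (SE 0.14, adjusted p = 0.00856). Gcsh, the lipoyl carrier protein, rose by 0.33 with the diet (SE 0.11, adjusted p = 0.0322) and exceeded its ND+veh level by 0.46 in HFD+eRapa (SE 0.10, adjusted p = 0.00377).

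Some of these calls turned on the setting or on a library. The rise of Amt with eRapa did not pass with an immune marker score in the model (0.45, adjusted p = 0.0919) or with a score of endothelial, stellate and cholangiocyte markers (0.36, adjusted p = 0.207), and its diet difference passed without any of HFD+veh replicate 1, 5 or 7 or ND+veh replicate 4 or 8 (adjusted p from 0.0230 to 0.0481). That difference also passed with voom (-0.42, adjusted p = 0.0493) and on the log2 FPKM scales (-0.43 and -0.45, adjusted p = 0.0249 and 0.0264). The diet call of Gldc was lost when only the 2 groups compared were fitted (0.80, adjusted p = 0.0554). The diet call of Gcsh was lost in that fit (0.31, adjusted p = 0.101), without a filter on low counts (0.29, 0.133) and without any of ND+veh replicates 1, 3, 4 and 6 or HFD+veh replicates 1, 3, 5, 6 and 7 (adjusted p from 0.0515 to 0.107).

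Gcat, the mitochondrial ligase of the threonine and glycine route that follows the enzyme encoded by Tdh, moved against Sds. It was at 10.01 to 26.7 CPM (median 24.05) in ND+veh, 6.16 to 16.1 CPM (median 12.0) in HFD+veh and 10.6 to 19.4 CPM (median 15.6) in HFD+eRapa. It fell by 0.95 with the diet (SE 0.19, adjusted p = 0.00170), the difference of 0.42 with eRapa did not pass (SE 0.18, adjusted p = 0.0815), and it stayed lower in HFD+eRapa than in ND+veh by 0.52 (SE 0.18, adjusted p = 0.0473). The level of Gcat is uncertain, because a second gene model of the same name overlaps 47.5% of its exonic length on the same strand and had 0 counts, although FPKM medians of 49.8, 28.3 and 33.3 had the same order. The eRapa difference passed without ND+veh replicate 4 (adjusted p = 0.0290), HFD+eRapa replicate 4 (0.0464) or HFD+veh replicate 7 (0.0384). The call against ND+veh was lost in 16 of 24 fits that each left out 1 library (highest adjusted p = 0.0841, without HFD+eRapa replicate 4). Those libraries were ND+veh replicates 1, 2, 3, 5, 6, 7 and 8, HFD+veh replicates 1, 2 and 5, and HFD+eRapa replicates 1, 3, 4, 6, 7 and 9. The call did not pass with voom (-0.49, adjusted p = 0.0883), with DESeq2 size factors (-0.52, 0.0502) or without a filter (-0.51, 0.0991).

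Both members of the cysteine and taurine branch fell with the high-fat diet (9.86% of all genes) and rose with eRapa (10.9%). Csad decarboxylates cysteine sulfinate on the way to taurine, which hepatocytes conjugate to bile acids. In ND+veh it was at 103 CPM in the lowest, 394 CPM in the median and 596 CPM in the highest animal. In HFD+veh the same values were 27.3, 77.8 and 93.3 CPM, and in HFD+eRapa 116, 193 and 307 CPM. All 7 HFD+veh animals thus lay below every animal of both other groups, and Csad was the only member whose animals did not overlap with eRapa. It was 5.80-fold lower with the diet (log2 fold change -2.54, SE 0.32, adjusted p = 1.94e-05) and 3.07-fold higher with eRapa (1.62, SE 0.31, adjusted p = 0.000750). The level in HFD+eRapa remained below that in ND+veh by a log2 fold change of -0.92 (SE 0.28, adjusted p = 0.0321). This last call was lost without any of ND+veh replicates 1, 3 and 7 or HFD+eRapa replicates 2, 3, 6 and 9 (adjusted p from 0.0525 to 0.0702). The same call did not pass with voom (-0.83), without a filter (-0.91) or on the log2 FPKM scales (both -0.82), at adjusted p from 0.0587 to 0.0859. The calls with the diet and with eRapa held in all 12 alternative settings, among them those with either marker score in the model, and in all 24 fits without 1 library. Csad lies at chr15:102176999-102204724, with 7.26% of its exonic length overlapped by Zfp740 on the opposite strand.

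Cdo1, the cysteine dioxygenase that makes the substrate of Csad, was far more abundant. Its level was 731 to 1586 CPM (median 1371) in ND+veh, 630 to 1139 CPM (median 829) in HFD+veh and 921 to 1687 CPM (median 1241) in HFD+eRapa, with overlap between all groups. It fell by 0.57 with the diet (SE 0.16, adjusted p = 0.0148) and rose by 0.56 with eRapa (SE 0.16, adjusted p = 0.00907), and HFD+eRapa and ND+veh differed by -0.01 (SE 0.15, adjusted p = 0.991). The rise with eRapa did not pass with the endothelial, stellate and cholangiocyte score in the model (0.53, adjusted p = 0.113).

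**Figure D3:**
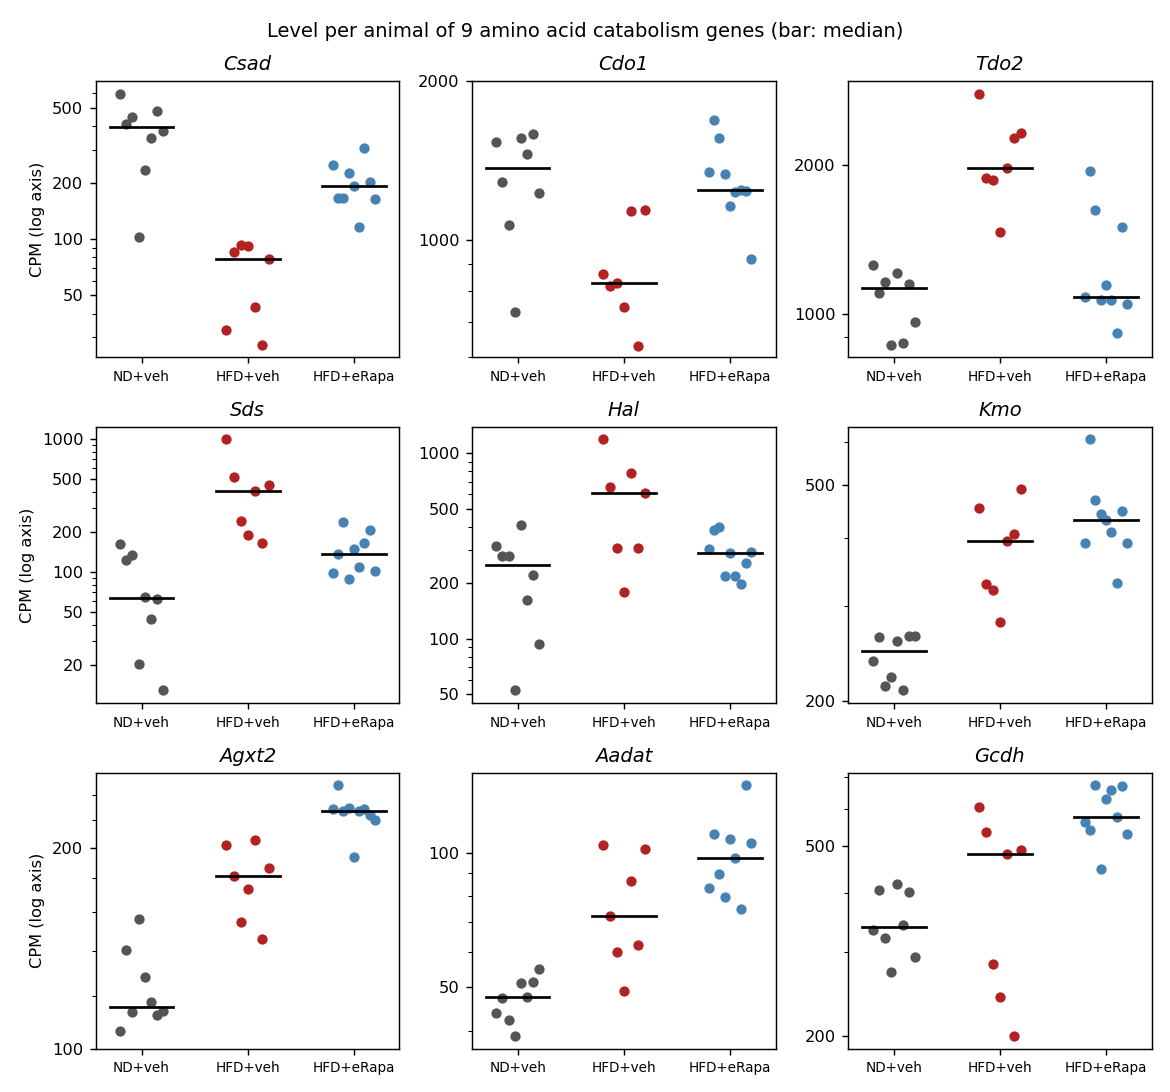
Level in each animal (CPM, log axis) of 9 genes in ND+veh (grey, n = 8), HFD+veh (red, n = 7) and HFD+eRapa (blue, n = 9), with a bar at each group median. Csad and Cdo1 dip in HFD+veh, to medians of 77.8 and 829 CPM, while Tdo2, Sds and Hal peak there. Kmo, Agxt2 and Aadat have their lowest animals in ND+veh and their highest medians in HFD+eRapa, and Gcdh has its lowest animals, down to 200 CPM, in HFD+veh.

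Histidine is degraded to glutamate in a chain of 4 steps, and the enzymes of the opening steps rose with the high-fat diet while the later ones did not pass the test. Hal (histidase) releases ammonia from histidine. It was at 52.5, 249 and 409 CPM in the lowest, median and highest ND+veh animal, at 179, 606 and 1186 CPM in HFD+veh and at 198, 290 and 398 CPM in HFD+eRapa. The HFD+veh group was broad and overlapped both others. Hal rose with the diet by 1.35 (SE 0.37, adjusted p = 0.0126) and fell by 1.02 with eRapa (SE 0.36, adjusted p = 0.0316). The second of these calls was lost without HFD+veh replicate 1 (adjusted p = 0.0987), which held the highest level, or replicate 5 (0.0618), and without HFD+eRapa replicate 6 (0.0545), 7 (0.0530) or 8 (0.05001). It was also lost with voom (-0.82, adjusted p = 0.111) and without a filter (-0.98, 0.0795), and the diet call was lost when only the 2 groups compared were fitted (1.33, 0.0508).

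Uroc1 (urocanase) acts next in the chain. It ran from 197 to 504 CPM (median 342) in ND+veh, from 267 to 920 CPM (median 631) in HFD+veh and from 386 to 486 CPM (median 447) in HFD+eRapa. It rose with the diet by 0.73 (SE 0.21, adjusted p = 0.0155), which did not pass when only the 2 groups compared were fitted (0.72, adjusted p = 0.0659), and the value with eRapa was -0.35 (SE 0.20, adjusted p = 0.195). Amdhd1, the imidazolonepropionase, and Ftcd, which transfers the formimino group to folate, had diet values of 0.25 (SE 0.22, adjusted p = 0.424) and 0.27 (SE 0.20, adjusted p = 0.329). With the immune score in the model the diet value of Ftcd was 0.57 and passed (adjusted p = 0.0361). Hal and Amdhd1 lie near each other, at chr10:93488768-93519304 and chr10:93523338-93540033.

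In the kynurenine route of tryptophan, 2 of 5 members rose with the high-fat diet, and only the entry enzyme fell with eRapa. Of all genes, 16.0% rose with the diet and 21.1% fell with eRapa. Tdo2 opens the indole ring of tryptophan and is the hepatic entry to the route. It was at 867, 1127 and 1257 CPM in the lowest, median and highest ND+veh animal. In HFD+veh it was at 1465, 1973 and 2792 CPM, above every ND+veh animal, and in HFD+eRapa at 913, 1083 and 1951 CPM, where 6 of 9 animals lay in the ND+veh range. Tdo2 rose by 0.96 with the diet (SE 0.16, adjusted p = 0.000341) and fell by 0.72 with eRapa (SE 0.15, adjusted p = 0.00181). The values of HFD+eRapa and ND+veh differed by 0.24 (SE 0.15, adjusted p = 0.334). Both calls held in all 12 alternative settings and in all 24 fits without 1 library.

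Kmo hydroxylates kynurenine further down the route and did not follow Tdo2 in its response to eRapa. It was at 209 to 264 CPM (median 248) in ND+veh, 280 to 492 CPM (median 394) in HFD+veh and 330 to 606 CPM (median 430) in HFD+eRapa. Every animal of both high-fat groups lay above every ND+veh animal. It was higher by 0.66 in HFD+veh (SE 0.12, adjusted p = 0.000902) and by 0.85 in HFD+eRapa (SE 0.12, adjusted p = 3.22e-05) than in ND+veh, and the value with eRapa was 0.19 (SE 0.12, adjusted p = 0.247). Kynu, Haao and Afmid, which complete the route from formylkynurenine to quinolinate precursors and alanine, passed in no comparison, with values from -0.28 to 0.25. Of Afmid, 44.3% of the exonic length is shared with another gene model on the same strand, so that its counts are uncertain.

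Lysine is degraded in mitochondria through saccharopine to glutaryl-CoA, and all 3 members had positive values in the comparison of either high-fat group with ND+veh. Aass, the bifunctional entry enzyme, was at 175 to 282 CPM (median 221) in ND+veh, 186 to 532 CPM (median 351) in HFD+veh and 262 to 388 CPM (median 307) in HFD+eRapa. Its diet difference of 0.51 (SE 0.17, adjusted p = 0.0324) passed but was lost without any of ND+veh replicates 1, 4, 6, 7 and 8 or HFD+veh replicates 1, 5 and 7 (adjusted p from 0.05003 to 0.0906). Nor did it pass with voom (0.45), without a filter (0.48), with only the 2 groups compared in the fit (0.50) or on the log2 FPKM scales (0.41 and 0.42), at adjusted p from 0.0540 to 0.103. Its difference between HFD+eRapa and ND+veh was 0.46 (SE 0.16, adjusted p = 0.0630), and this passed without HFD+veh replicate 1 (0.0307).

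Aadat, an aminotransferase that acts on both aminoadipate and kynurenine, was at 38.9 to 54.9 CPM (median 47.5) in ND+veh, 49.2 to 104 CPM (median 72.2) in HFD+veh and 74.7 to 141 CPM (median 97.1) in HFD+eRapa. All HFD+eRapa animals lay above all ND+veh animals. It rose by 0.70 with the diet (SE 0.15, adjusted p = 0.00294) and exceeded the ND+veh level 2.09-fold in HFD+eRapa (1.06, SE 0.14, adjusted p = 2.39e-05). With eRapa the difference was 0.37 (SE 0.15, adjusted p = 0.0600), and it passed without HFD+veh replicate 1 (0.0191) or 7 (0.0233) or HFD+eRapa replicate 4 (0.0443) or 7 (0.0400).

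Gcdh, the glutaryl-CoA dehydrogenase shared by lysine and tryptophan breakdown, was at 273 to 417 CPM (median 338) in ND+veh, 200 to 605 CPM (median 483) in HFD+veh and 450 to 672 CPM (median 576) in HFD+eRapa. The HFD+veh animals were split, with 3 below the ND+veh median and the others above the ND+veh range, whereas all HFD+eRapa animals lay above all ND+veh animals. In HFD+eRapa it exceeded ND+veh by 0.75 (SE 0.18, adjusted p = 0.00522), the diet value was 0.22 (SE 0.19, adjusted p = 0.390), and it rose with eRapa by 0.53 (SE 0.18, adjusted p = 0.0302). The last call was lost without HFD+veh replicate 3 (0.0789), 4 (0.0789) or 6 (0.0711) or HFD+eRapa replicate 3 (0.0501), 6 (0.0504) or 8 (0.0511), and with only the 2 groups compared in the fit (0.54, adjusted p = 0.0676). With the immune score in the model the value was 0.26 (adjusted p = 0.422), and with the endothelial, stellate and cholangiocyte score 0.14 (adjusted p = 0.709).

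Transaminases move amino groups between amino acids and keto acids, and 3 of the 5 members rose with the high-fat diet (16.0% of all genes). Agxt2, a mitochondrial aminotransferase that acts on alanine and glyoxylate as well as on methylated arginines, had the smallest SE of any member. It was at 106, 116 and 156 CPM in the lowest, median and highest ND+veh animal, at 146, 181 and 205 CPM in HFD+veh and at 193, 227 and 248 CPM in HFD+eRapa. The level thus stepped up from group to group, and the HFD+eRapa animals did not overlap those of ND+veh. It rose by 0.53 with the diet (SE 0.09, adjusted p = 0.000513) and by 0.33 with eRapa (SE 0.09, adjusted p = 0.00749), and in HFD+eRapa it exceeded ND+veh by 0.86 (SE 0.09, adjusted p = 6.13e-07). The step with eRapa did not pass with the immune score (adjusted p = 0.0724) or the endothelial, stellate and cholangiocyte score (0.107) in the model, where its size was 0.33 and 0.32, or on the log2 FPKM scales (both 0.25, adjusted p = 0.0920 and 0.0946).

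Gpt2, the mitochondrial alanine aminotransferase, was at 173 to 431 CPM (median 268) in ND+veh, 225 to 663 CPM (median 408) in HFD+veh and 430 to 670 CPM (median 548) in HFD+eRapa. In HFD+eRapa it exceeded ND+veh by 0.88 (SE 0.18, adjusted p = 0.00135), and all but 1 of the HFD+eRapa animals lay above the whole ND+veh range. Its diet difference of 0.55 (SE 0.18, adjusted p = 0.0328) was lost without any of ND+veh replicates 4, 5, 6, 7 and 8 or HFD+veh replicates 1, 2 and 5 (adjusted p from 0.0512 to 0.0807). It was also lost with voom (0.53), without a filter (0.52), with only the 2 groups compared in the fit (0.54) and on the log2 FPKM scales (both 0.44), at adjusted p from 0.0505 to 0.114. With eRapa the value was 0.33 (SE 0.18, adjusted p = 0.166), which passed without HFD+veh replicate 1 (0.0420). Gpt, its cytosolic counterpart, passed in no comparison, with values of 0.14, 0.30 and 0.44.

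Got1, the cytosolic aspartate aminotransferase, was at 66.4 to 325 CPM (median 180) in ND+veh, 112 to 751 CPM (median 371) in HFD+veh and 191 to 392 CPM (median 229) in HFD+eRapa. It rose with the diet by 1.01 (SE 0.33, adjusted p = 0.0275), a call lost without HFD+veh replicate 1 (0.0788), the animal with the highest level. It was also lost with voom (0.90, adjusted p = 0.0579), without a filter (0.98, 0.0699), with only the 2 groups compared in the fit (0.99, 0.0840) and on log2(FPKM + 0.1) (0.88, 0.0516). The value with eRapa was -0.51 (SE 0.32, adjusted p = 0.225). Agxt, the peroxisomal alanine and glyoxylate aminotransferase, passed in no comparison, with values of 0.39, -0.05 and 0.34.

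The 6 members of phenylalanine and tyrosine breakdown were among the most abundant and none passed with the diet or with eRapa, with values between -0.12 and 0.22 for the diet and between -0.40 and 0.25 for eRapa. Tat, the tyrosine aminotransferase, was at 590 to 2200 CPM in ND+veh, 391 to 2442 CPM in HFD+veh and 741 to 1394 CPM in HFD+eRapa, so that the spread within the vehicle groups was larger than any difference between group medians. Hgd, the homogentisate dioxygenase, exceeded ND+veh by 0.44 in HFD+eRapa (SE 0.14, adjusted p = 0.0392). That call was lost in 11 of the 24 fits without 1 library, up to adjusted p = 0.109 without ND+veh replicate 4. The other libraries were ND+veh replicates 3, 5, 6, 7 and 8, HFD+veh replicate 3 and HFD+eRapa replicates 2, 3, 7 and 8. It was also lost without a filter (0.45, adjusted p = 0.0941), on the log2 FPKM scales (both 0.34, 0.0578 and 0.0565) and with the endothelial, stellate and cholangiocyte score (0.32, 0.0600). Fah, the last enzyme of the route, was not called with eRapa at 0.25 (adjusted p = 0.238) but passed without HFD+veh replicate 1 (0.0470). Qdpr and Pcbd1, which recycle tetrahydrobiopterin, and Hpd passed in no comparison. Prodh, which starts the oxidation of proline, had values of -0.35, -0.16 and -0.51 (SE from 0.28 to 0.30), none of which passed.

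Animals differed in the level of most members at once. Within HFD+veh, replicate 1 was the highest animal for 22 of the 32 tested members, and the lowest was replicate 6 for 22 and replicate 4 for the other 10. These animals also differed in the markers of other cell types: the summed macrophage level was 171 CPM in replicate 1, 2496 CPM in replicate 4 and 5434 CPM in replicate 6, and the summed stellate level was 39.7, 558 and 478 CPM. Counts of highest and lowest animals do not rank the other animals, and their relation to the marker levels was not tested. Replicate 2, the highest animal for only 1 member, had a macrophage level of 174 CPM. Replicates 3 and 5, at 3248 and 2882 CPM, were the lowest animal for no member. Within ND+veh, replicate 4 was the lowest animal for 22 members and replicate 8 for 8. The range within a group had a median over the members of 1.58 log2 units in HFD+veh, 1.13 in ND+veh and 0.77 in HFD+eRapa. It was widest in HFD+veh for 22 members and narrowest in HFD+eRapa for 27. Ranges were not computed over all genes, so whether this is particular to the members was not tested.

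**Figure D4:**
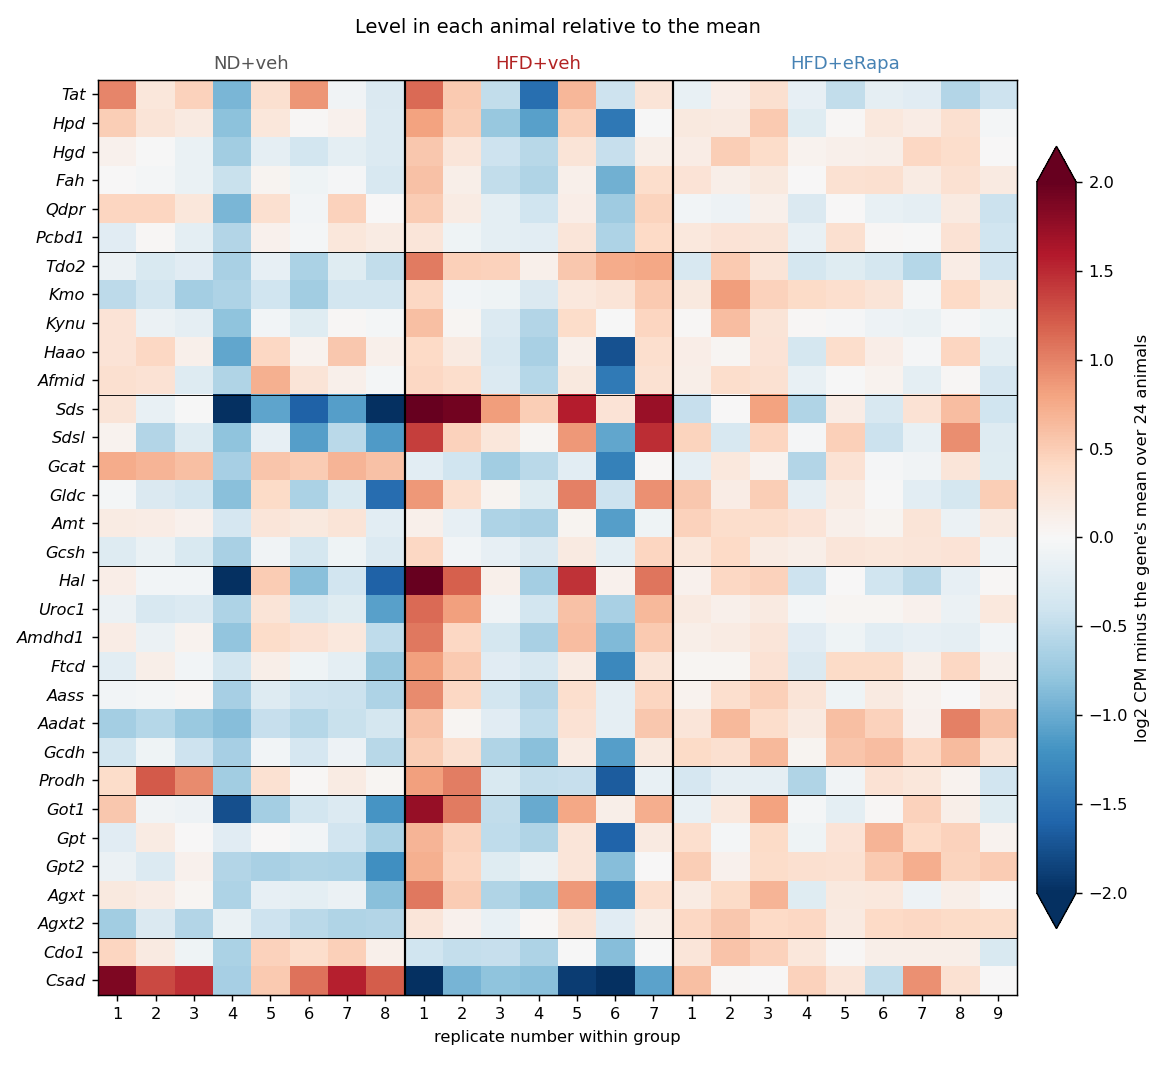
Level of the 32 tested genes (rows, by pathway) in each of the 24 animals (columns, by group and replicate number), as log2 CPM minus the mean of the gene over all animals. Red is above and blue below that mean, and the colour scale ends at 2 log2 units to either side. HFD+veh replicate 1 is red and replicates 4 and 6 are blue in most rows, while Csad, in the bottom row, is blue throughout HFD+veh.

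Counts of calls were set beside these marker levels in fits that held a marker score as a covariate. The scores were themselves shifted between groups, with overlap. The immune score ran from -1.19 to 0.68 in ND+veh, -0.45 to 1.57 in HFD+veh and -1.58 to 0.54 in HFD+eRapa. These fits therefore cannot fully separate marker level from diet or eRapa. With the immune score, 14 members were called higher and 3 lower with the diet, and 2 higher and 3 lower with eRapa. Among all genes this fit called 4.03% higher and 4.37% lower with the diet, and 3.03% higher and 3.78% lower with eRapa. With the endothelial, stellate and cholangiocyte score, 15 were higher and 3 lower with the diet, and 1 higher and 6 lower with eRapa. Among all genes the shares were 7.37% and 6.50% with the diet, and 2.49% and 3.17% with eRapa. That score added 3 members to the lower calls with eRapa, with Sdsl at -1.02 (adjusted p = 0.0234), Uroc1 at -0.73 (0.0141) and Got1 at -1.02 (0.0211). Without ND+veh replicate 4 and HFD+veh replicate 6, 10 members were called higher and 3 lower with the diet, 4 higher and 3 lower with eRapa, and 6 higher and 2 lower between HFD+eRapa and ND+veh. Of all genes, this fit called 8.55% higher and 8.13% lower with the diet, and 9.82% and 14.5% with eRapa. Between HFD+eRapa and ND+veh the shares were 7.85% and 7.02%. The calls lost were those of Gcsh, Aass and Got1 for the diet (adjusted p = 0.0808, 0.0695 and 0.0573), Gcdh for eRapa (0.0688) and Hgd against ND+veh (0.0709).

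Other enzymes of the same pathways were compared through a list of 39 genes, of which 36 were tested and Ido1, Dao and Gadl1 were not. With the diet 4 were called higher and 1 lower, with eRapa 8 higher and 1 lower, and between HFD+eRapa and ND+veh 4 higher and 1 lower. The shares called higher were 11.1%, 22.2% and 11.1%, against 16.0%, 10.9% and 6.93% of all genes, and the share called lower was 2.78% each time, against 9.86%, 21.1% and 6.54%. Gls2, the liver glutaminase, which releases ammonia from glutamine, rose by 1.21 with the diet (SE 0.30, adjusted p = 0.00702) and fell by 0.80 with eRapa (SE 0.29, adjusted p = 0.0382), the directions of Sds, Hal and Tdo2. Mpst, a sulfurtransferase of cysteine breakdown, rose by 1.01 with eRapa (SE 0.23, adjusted p = 0.00231), with all HFD+eRapa animals above all HFD+veh animals, and its diet value did not pass. Oat, the ornithine aminotransferase, rose by 1.15 with eRapa (SE 0.41, adjusted p = 0.0367), with overlapping groups of 57.1 to 975 CPM in HFD+veh and 391 to 930 CPM in HFD+eRapa. The other calls were smaller than 1 log2 unit, and those genes are named here after their values were seen. Higher with eRapa were Shmt2, Grhpr, Glyat, Aldh4a1, Got2 and Glud1. Higher with the diet were Dld, Suox and Sqor, and Kyat1 was lower. Between HFD+eRapa and ND+veh, Gstz1, Dld, Grhpr and Mpst were higher and Acmsd was lower.

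Since Sds and Hal are periportal genes, other zonal markers were read beside them. Of 7 periportal markers that are not members, 4 rose with the diet, among them Cyp2f2 by 1.61 (adjusted p = 0.000360), Hsd17b13 by 1.30 (adjusted p = 2.61e-05) and Gls2 by 1.21. With eRapa, Hsd17b13 fell by 0.79 (adjusted p = 0.00148) and Gls2 also fell, and the other 5 did not pass. Of 8 pericentral markers, 5 fell with the diet, namely Cyp2e1, Cyp1a2, Axin2, Lgr5 and Rgn, with values from -1.93 to -1.46. With eRapa 7 of the 8 rose, with Cyp2e1 at 2.04 (SE 0.32, adjusted p = 0.000140) the largest, beside Glul, Cyp1a2, Oat, Axin2, Lgr5 and Rgn. None of the 8 was called between HFD+eRapa and ND+veh, where 5 had a positive value. Of the 7 periportal markers, 2 were higher there, Cyp2f2 by 1.03 (adjusted p = 0.00771) and Hsd17b13 by 0.51 (adjusted p = 0.0355). Of all genes tested, 16.0% rose and 9.86% fell with the diet, and 10.9% rose and 21.1% fell with eRapa. Between HFD+eRapa and ND+veh 6.93% were higher and 6.54% lower. The part of hepatocyte zonation in the levels of Sds and Hal was not tested.

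Among 11 genes for regulators of these enzymes, 1 rose and 1 fell with the diet (9.09% each, against 16.0% and 9.86% of all genes), and 2 rose and 2 fell with eRapa (18.2% each, against 10.9% and 21.1% of all genes). Cebpb, a transcription factor of hepatic gluconeogenesis and amino acid metabolism, fell by 0.79 with the diet (SE 0.25, adjusted p = 0.0254) and rose by 0.97 with eRapa (SE 0.25, adjusted p = 0.00558). Ppargc1a, a coactivator of fasting genes, fell by 0.89 with eRapa (SE 0.23, adjusted p = 0.00525) and was lower in HFD+eRapa than in ND+veh at -0.78 (SE 0.22, adjusted p = 0.0176). Creb1, which mediates cAMP signalling, fell by 0.61 with eRapa (SE 0.20, adjusted p = 0.0239), and Gcgr, the glucagon receptor, rose by 0.62 (SE 0.24, adjusted p = 0.0461). Pcbd2, a paralog of Pcbd1, rose by 0.51 with the diet (SE 0.17, adjusted p = 0.0312) and exceeded ND+veh by 0.60 in HFD+eRapa (SE 0.16, adjusted p = 0.0123). Klf15, Nr3c1, Cebpa, Foxo1 and Insr were called in no comparison.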

How the data were processed

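RNA-seq of hepatocytes from 24 mice in 3 groups was analysed. Per the study's methods, the authors aligned reads to mm10 (Gencode vM23) with STAR in 2 passes, filtered with SAMtools 1.1.0, deposited raw counts per gene from HTSeq 0.11.2, and deposited FPKM from Cufflinks. Here the counts were filtered by group (filterByExpr) and tested in edgeR 4.0.16 (R 4.3.3) with TMM scaling, 1 robust quasi-likelihood fit of all 3 groups and Benjamini-Hochberg adjustment over 13847 genes. CPM uses TMM-scaled library sizes and log2 CPM a prior count of 2. FPKM served to compare levels between genes and, as log2(FPKM + 1) and log2(FPKM + 0.1) in limma 3.58.1, as alternatives, with DESeq2 1.42.0 as another. Fold changes on those scales understate low genes. Gene positions and overlaps come from the Gencode vM21 annotation of mm10. The depth of 17.7 to 25.9 M counts limits precision for counting error only.

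The members and lists were chosen with earlier results of these data known. All 33 members are named, and those called in any comparison by 0.5 log2 units or more are given in full. Of other pathway genes, those called by 1 or more are named, and of regulators and zonal markers those called; a few genes are not reported here. Replicate numbers were not used to pair animals in the main fit. Correlations of same-numbered libraries ranged from -0.66 to 0.73, with a mean of 0.32 between HFD+veh and ND+veh.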

Additional observations from a re-analysis of the deposited data

Results flagged for a closer look

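For each of the 32 tested members and each group, the highest or lowest animal was compared with the rest of its group, and in 4 of 96 such groups it stood apart by Dixon's criterion, which chance alone reaches in about 1 in 20 groups (4.8 of 96). ND+veh replicate 4 was the lowest of its group for Qdpr at 7.34 log2 CPM (next lowest 8.21), for Haao at 7.46 log2 CPM (next lowest 8.57) and for Gcat at 3.34 log2 CPM (next lowest 4.503). HFD+eRapa replicate 5 was the lowest of its group for Agxt2 at 7.60 log2 CPM (next lowest 7.78). ND+veh replicate 4 also had the lowest summed hepatocyte marker level of ND+veh, 63424 CPM, and its part in these values was not tested.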

How the results depend on the processing

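Of the 33 calls that members received in 96 tests, 17 held in all 12 alternative settings and 24 in every fit without 1 library. No call changed its sign, although 77 estimates did where neither setting made a call. The members called higher with the diet fell from 13 to 6 when only those groups were fitted, and all genes called higher fell from 16.0% to 10.7%. Members called higher with eRapa fell from 5 to 2 with the immune score and 1 with the endothelial, stellate and cholangiocyte score (all genes called higher fell from 1507 to 419 and 345 in the same fits). The 3 members called lower became 6 with the latter score and 1 (Tdo2) with a replicate block. All genes called lower fell from 2925 to 439 and 1459 in those fits. Against ND+veh, the 7 members higher in HFD+eRapa became 11 when only those groups were fitted, and all genes called higher went from 6.93% to 9.45%. The 2 lower members became 0 with voom, without a filter and with the replicate block, 1 with DESeq2 size factors, 1 with log2(FPKM + 1), 1 with log2(FPKM + 0.1) and 4 with the endothelial, stellate and cholangiocyte score. All genes called lower went from 6.54% to 5.51% with voom, 2.24% without a filter, 4.79% with the block and 9.76% with that score. The calls among other pathway genes went from 5 to 3 for the diet without a filter or without ND+veh replicate 4 and HFD+veh replicate 6, and to 9 with the endothelial, stellate and cholangiocyte score; from 9 to 4 (immune score) and 3 (the other score) for eRapa; and from 5 to 3 without a filter, 16 with only those groups, 10 with the immune score and 9 without those libraries for HFD+eRapa against ND+veh. With the diet, 6.23% of all genes were called higher and 3.39% lower without a filter, and 8.55% and 8.13% without those libraries. Against ND+veh they were 2.32% and 2.24% without a filter, 9.45% and 8.67% with only those groups, and 8.86% and 10.8% with the immune score. The cause of these changes was not tested. Leaving out 1 library at a time gave 9 to 13 members higher and 3 to 4 lower with the diet, 4 to 8 higher (8 without HFD+veh replicate 1) and 2 to 3 lower with eRapa (2 without that library), and 6 to 8 higher and 0 to 2 lower against ND+veh. The other pathway genes called ranged from 4 to 6, 7 to 10 and 3 to 10. All genes called higher ran from 988 to 2755 with the diet, 1117 to 1824 with eRapa and 750 to 1059 against ND+veh.

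The replicate number was not used to pair animals in the main fit. Same-numbered libraries correlated at a mean of 0.32 between HFD+veh and ND+veh, where 5 of 7 pairs were over 0.1. In the other comparisons the mean was -0.24 (eRapa) and -0.20 (HFD+eRapa and ND+veh). In this order, 5 of 14, 1 of 14 and 1 of 16 libraries correlated best with their own number. Whether same-numbered HFD+veh and ND+veh libraries share a source of variation was not tested. With the replicate block 11 members were higher and 4 lower with the diet, against 10.4% and 7.4% of all genes. The block also moved Sds with eRapa to adjusted p = 0.0542 and Hal to 0.0839. With the diet it moved Aass (0.45) to 0.0730, Gpt2 (0.49) to 0.0761 and Amt (-0.45) to 0.0328. Between HFD+eRapa and ND+veh it moved Gcat to 0.0666, Csad to 0.0764, Sds to 0.0471, Sdsl to 0.0459 and Gldc to 0.0372.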
